A study of Homo sapiens with 8 samples.

Results

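Postsynaptic scaffold proteins were followed as 10 genes chosen by name: DLG1, DLG2, DLG3, DLG4, DLGAP1, DLGAP2, SHANK1, SHANK2, HOMER1 and HOMER2. A gene was a row of the deposited table annotated to exactly 1 symbol, and 9 of the 10 had such a row, 1 row each, out of 18377 genes. DLGAP1 was not analysed here. The cells were SHSY5Y, a human neuroblastoma line of neural crest origin, kept as 2 stable lines under puromycin selection and grown on laminin, and RNA was hybridised to 8 Affymetrix Human Gene 1.0 ST arrays. The 4 groups held 2 biological replicates each: V71 DF, V71 NDF, PLKO DF and PLKO NDF. DF cells had been differentiated, first through 5 days in 10 µM retinoic acid and next through 3 serum-free days with BDNF at 2 nM, a neurotrophin. NDF cells stayed in growth medium with serum. V71 and PLKO are codes in the sample titles. The treatment label gives shRNA for PLKO and control for V71, whereas in the methods the empty control vector is pLKO.1-Puro and the number of the hairpin clone ends in the digits of the code V71. The gene that the hairpin targets was not analysed here and so did not check the labels. Every difference between the lines was therefore taken by code, as V71 minus PLKO. Each arm of that comparison is a single stable line, so hairpin and line cannot be told apart, and whether a line is 1 clone is not given in the sources used here.

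At an excitatory synapse the postsynaptic density lies under the receptors as a layered mesh of scaffold proteins. The DLG proteins (SAP97, PSD-93, SAP102 and PSD-95) are membrane-associated guanylate kinases whose PDZ domains hold the tails of NMDA receptors and other membrane proteins. DLGAP proteins bind the guanylate kinase domain of the DLGs, SHANK proteins bind the DLGAPs from below, and Homer proteins crosslink SHANK to metabotropic glutamate receptors and to the inositol trisphosphate receptor. Sympathetic neuroblasts such as SHSY5Y are not glutamatergic neurons, and several of these proteins also serve at cell contacts outside synapses.

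Upon differentiation DLG2 and HOMER2 were the scaffold genes called, and both were higher in DF cells of both lines. DLG2, which encodes PSD-93, rose 9.88-fold in V71 cells and 7.05-fold in PLKO cells, and HOMER2, a long coiled-coil Homer, rose 1.90-fold in V71 and 1.60-fold in PLKO cells. No scaffold gene passed the test and the fold threshold in the other direction. Between the lines no scaffold gene was called, but DLG3 and HOMER1 were lower in V71 than in PLKO after differentiation by just under the fold threshold. Calls required a fold of at least 1.5 together with a limma p below 0.05 once adjusted by Benjamini-Hochberg across the 28869 rows of the table.

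The start regions of both genes that rose are shown first, because they are the sequences next to the transcripts that changed, and DLG2 is shown at its most upstream start (the first) and its most downstream start (the last), since the array row does not tell its starts apart. RefSeq (GRCh38.p14) windows of 250 bases before to 50 bases after a start were at hand for 6 of the 9 analysed genes, 24 windows in all, 9 of them from DLG2 and 1 from HOMER2. Capitals mark a GC box, GGGCGG or its reverse complement CCGCCC, a promoter motif bound by SP1. Overlapping matches were counted separately.
HOMER2, chr15:82952671-82952970, minus strand: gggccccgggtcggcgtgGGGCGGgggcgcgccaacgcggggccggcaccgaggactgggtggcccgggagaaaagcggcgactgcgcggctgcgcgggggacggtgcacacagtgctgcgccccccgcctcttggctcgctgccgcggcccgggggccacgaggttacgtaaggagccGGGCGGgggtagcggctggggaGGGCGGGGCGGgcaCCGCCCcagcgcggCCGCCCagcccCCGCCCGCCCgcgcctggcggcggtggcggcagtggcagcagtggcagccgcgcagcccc
DLG2 first start, chr11:85628324-85628623, minus strand: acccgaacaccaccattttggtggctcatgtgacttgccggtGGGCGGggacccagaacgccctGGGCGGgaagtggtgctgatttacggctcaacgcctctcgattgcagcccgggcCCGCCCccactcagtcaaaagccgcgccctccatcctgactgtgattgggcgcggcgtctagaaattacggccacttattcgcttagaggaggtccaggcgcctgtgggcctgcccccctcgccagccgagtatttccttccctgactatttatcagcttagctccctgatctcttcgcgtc
DLG2 last start, chr11:83682239-83682538, minus strand: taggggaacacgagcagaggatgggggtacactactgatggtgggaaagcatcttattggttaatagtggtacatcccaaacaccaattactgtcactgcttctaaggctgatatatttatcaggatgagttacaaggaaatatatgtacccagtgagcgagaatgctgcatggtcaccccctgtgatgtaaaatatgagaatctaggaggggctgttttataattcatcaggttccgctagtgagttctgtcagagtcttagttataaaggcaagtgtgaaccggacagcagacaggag
The HOMER2 window had 82% G and C and 8 GC boxes, and the first DLG2 window had 61% and 3, while the last DLG2 window had 44% and 0. A GC box stood in 10 of the 24 windows and in 45% of all 35116 windows of that length. The nuclear receptor half-site AGGTCA, searched on both strands, was in 0 of the 24 windows and in 13.8% of all windows. The cyclic AMP response element TGACGTCA was in 1 of the 24, from DLG4, and in 1.85% of all windows. These are descriptions of letters in a window and not of binding.

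The arrays resembled each other closely, with Spearman correlations across rows of 0.9947 or more inside groups and 0.9931 or less across them. With 2 arrays a group, their number sets the precision. Of 12 analysed noradrenergic neuroblast markers, 7 (HAND2, GATA2, GATA3, ISL1, DBH, STMN2 and ELAVL4) stood at or above the 92.7 percentile of rows on every array. On their dimmest arrays PHOX2A stood at the 86.4, DDC at the 86.2, CHGA at the 82.3 and CHGB at the 74.6 percentile, while TH, the first enzyme of catecholamine synthesis, stood between the 44.2 and 48.8 percentiles. All 8 S phase and mitosis genes were called lower in DF than in NDF in both lines. Of all genes 7.53% were called upon differentiation in V71 and 7.04% in PLKO. Between the lines in DF 5 of the 8 were called higher in V71, where 3.06% of all genes were called. The mean log2 level of the 8 S phase and mitosis genes was 6.78 to 6.82 in V71 DF and 8.13 to 8.22 in V71 NDF cells. In PLKO it was 6.03 to 6.21 in DF and 7.95 to 7.99 in NDF cells. Of 12 markers of the substrate-adherent (S-type) neuroblastoma cell, 3 were called lower in V71 than in PLKO in DF and 6 in NDF. No S-type marker was called higher, and of all genes 3.06% were called in DF and 2.15% in NDF. Upon differentiation 1 of the 12 was called lower in V71, where 7.53% of all genes were called, and 5 in PLKO, where 7.04% were. Of the noradrenergic markers 2 were called higher and 3 lower in V71, and 1 higher and 1 lower in PLKO, beside the same shares of all genes. The mean log2 level of the S-type markers was 4.01 to 4.13 in V71 DF against 4.53 to 4.59 in PLKO DF cells. In NDF it was 4.25 to 4.34 in V71 against 5.15 to 5.18 in PLKO cells. The part of these markers in the scaffold results was not tested, and in bulk RNA fewer cells of a type and less RNA per cell cannot be told apart.

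DLG2 had the clearest change of the scaffold genes. In the V71 line its log2 values were 5.95 and 6.18 in DF, against 2.74 and 2.78 in NDF. In PLKO they were 5.49 and 5.91 in DF, against 2.72 and 3.04 in NDF. Every DF array lay more than 2 log2 units above every NDF array, in both lines. The log2 change was 3.30 in V71 (standard error 0.15, limma adjusted p = 1.55e-06) and 2.82 in PLKO (standard error 0.15, limma adjusted p = 3.35e-06). By size of increase DLG2 ranked 13 among the 18377 genes in V71 and 6 in PLKO. In NDF cells the row was dim: it stood between the 18.7 and 25.1 percentiles of rows, below the lower quartile of its array on both V71 arrays and on 1 of the 2 PLKO arrays, and background may set the size of the fold there. With such values raised to the lower quartile, the estimated increase was 8.19-fold in V71 and 6.35-fold in PLKO, given without an interval. Leaving out any array kept both calls.

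**Figure D1:**
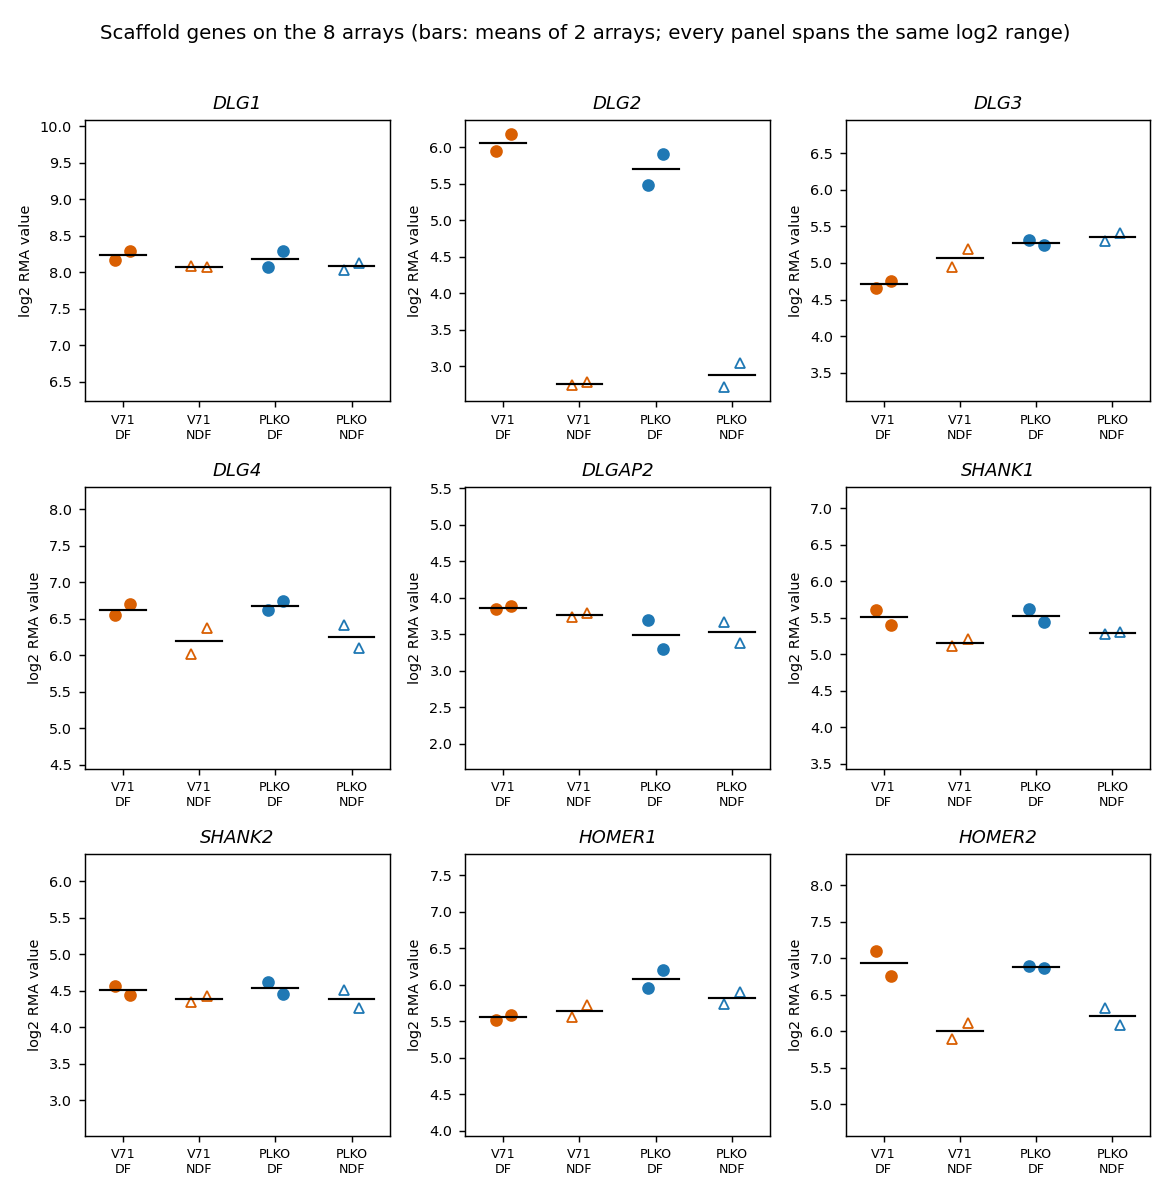
Deposited log2 RMA value of each of the 9 analysed scaffold genes on each of the 8 arrays, by group on the x axis. Filled circles are DF, open triangles NDF, orange V71 and blue PLKO, and bars are means of 2 arrays; DLG2 reaches 5.49 to 6.18 in DF and 2.72 to 3.04 in NDF, and the other genes move far less.

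Whether the rise of DLG2 differed between the lines was asked with the interaction term. The change in V71 minus that in PLKO was 0.49 on the log2 scale (standard error 0.22, limma adjusted p = 0.546), with a 95% interval of 0.00 to 0.98. Within DF the V71 minus PLKO difference of DLG2 was 0.37 (limma adjusted p = 0.266), and the 2 V71 arrays lay above the 2 PLKO arrays by a narrow margin, 5.95 against 5.91. In NDF the difference was -0.12 (limma adjusted p = 0.838). The order of group means for DLG2 was thus V71 DF, PLKO DF, PLKO NDF and V71 NDF, and the differences between neighbours in the same medium did not pass the test.

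The other 3 DLG genes did not follow DLG2. DLG4, which encodes PSD-95, had log2 values of 6.55 and 6.70 in V71 DF against 6.02 and 6.38 in V71 NDF cells, and 6.62 and 6.74 in PLKO DF against 6.41 and 6.10 in PLKO NDF cells. Its DF arrays lay above its NDF arrays in both lines, with a log2 change of 0.43 in each (standard error 0.14), and the limma adjusted p of 0.0850 in V71 and 0.0863 in PLKO missed the threshold. Without V71 NDF replicate 3 the change in V71 was 0.61 and was called (adjusted p = 0.0357). DLG1, which encodes SAP97 and is widely expressed outside neurons, was bright and even, between 8.03 and 8.29 on all 8 arrays. Its change upon differentiation had 95% intervals of -0.07 to 0.37 in V71 and -0.12 to 0.32 in PLKO. Between the lines the intervals in DF were -0.17 to 0.27 for DLG1 and -0.37 to 0.27 for DLG4, and in NDF -0.22 to 0.22 and -0.37 to 0.27.

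DLG3, which encodes SAP102, the DLG protein prominent at immature synapses, stood lower in V71 than in PLKO. Its log2 values were 4.66 and 4.76 in V71 DF cells, against 5.32 and 5.24 in PLKO DF cells. In NDF they were 4.94 and 5.19 in V71, against 5.30 and 5.41 in PLKO. All V71 arrays lay below all PLKO arrays. In DF the log2 difference was -0.57 (standard error 0.10, limma adjusted p = 0.0127), a fold of 1.49 that falls just short of 1.5, and the adjusted p was 0.138 without moderation of the variance. Leaving out PLKO DF replicate 2 or V71 DF replicate 2 took the difference to -0.61 or -0.62 and over the fold threshold, with adjusted p of 0.0417 and 0.0403, whereas without PLKO DF replicate 1 or V71 DF replicate 1 the adjusted p was 0.0790 and 0.101. In NDF the difference was -0.29 (limma adjusted p = 0.253). Upon differentiation DLG3 changed by -0.35 in V71 (limma adjusted p = 0.0548) and by -0.07 in PLKO (limma adjusted p = 0.791). The interaction was -0.28, with a 95% interval of -0.61 to 0.05 (limma adjusted p = 0.637). V71 DF thus had the lowest mean and PLKO NDF the highest.

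The Homer genes are adaptors that end the chain of scaffolds, and their rows behaved differently. HOMER2 had log2 values of 7.10 and 6.76 in V71 DF against 5.90 and 6.11 in V71 NDF cells. In PLKO it had 6.90 and 6.87 in DF against 6.32 and 6.09 in NDF cells. DF arrays lay above NDF arrays in both lines. The log2 change was 0.93 in V71 (standard error 0.13, limma adjusted p = 0.00122) and 0.68 in PLKO (standard error 0.13, limma adjusted p = 0.0076), and the difference between the lines in this change did not pass the test (interaction 0.25, 95% interval -0.16 to 0.66, limma adjusted p = 0.78). The call in PLKO ends without PLKO NDF replicate 3, at 0.56 (adjusted p = 0.0842), and neither call holds without moderation, with adjusted p of 0.0610 in V71 and 0.115 in PLKO. Between the lines HOMER2 differed by 0.05 in DF and by -0.20 in NDF (limma adjusted p = 0.916 and 0.597).

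HOMER1, whose short form Homer1a is an early gene of neuronal activity and whose long forms build the scaffold, is covered by a single row that does not separate the forms. Its log2 values were 5.52 and 5.58 in V71 DF against 5.96 and 6.20 in PLKO DF cells. In NDF they were 5.55 and 5.72 in V71 against 5.73 and 5.90 in PLKO. The V71 arrays lay below the PLKO arrays in each medium, in NDF by only 0.01 at the nearest pair. The difference in DF was -0.53 (standard error 0.11, limma adjusted p = 0.0259), a fold of 1.44, and it was -0.18 in NDF (limma adjusted p = 0.575). Without PLKO DF replicate 1 the difference in DF was -0.65 and was called (adjusted p = 0.0314), and without any other single DF array the adjusted p lay above 0.05, between 0.0788 and 0.150. Without moderation it was 0.189. Upon differentiation HOMER1 changed by -0.08 in V71 and by 0.26 in PLKO (limma adjusted p = 0.741 and 0.184), and the interaction was -0.35, with a 95% interval of -0.70 to 0.01 (limma adjusted p = 0.551).

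**Figure D2:**
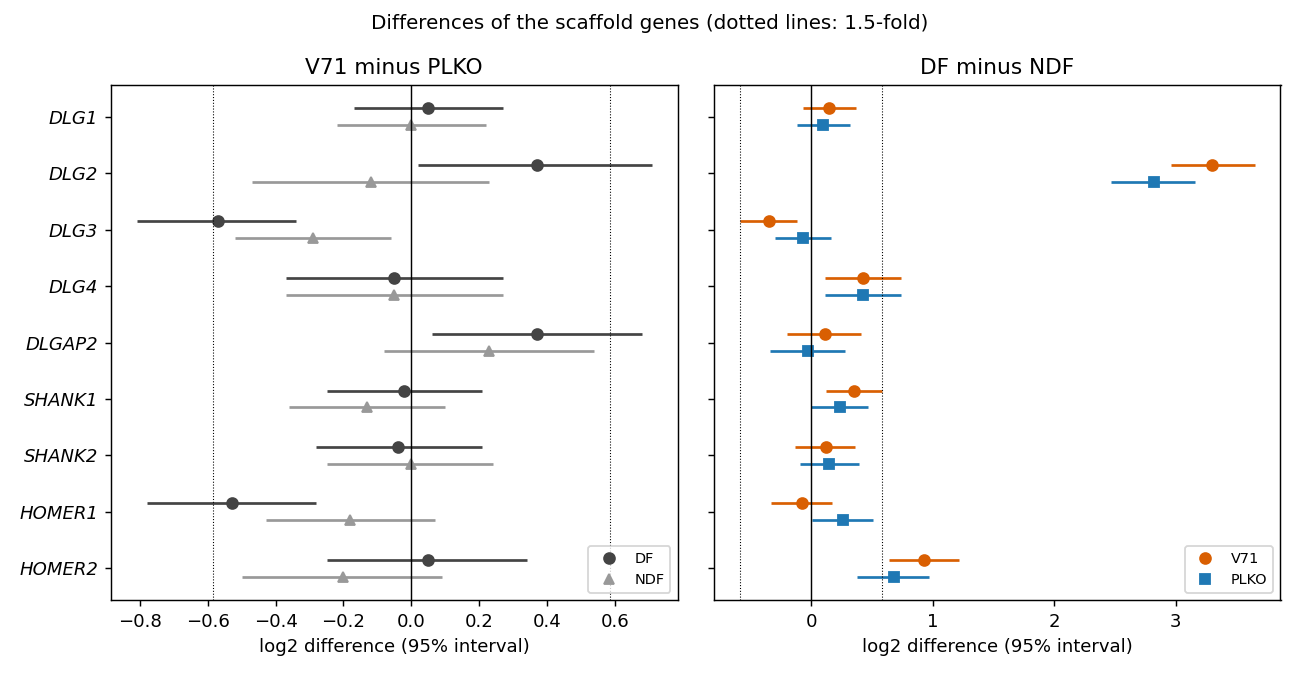
Log2 difference of each analysed scaffold gene with its 95% interval from limma, V71 minus PLKO on the left (DF and NDF) and DF minus NDF on the right (V71 and PLKO); the scales differ, and dotted lines mark a fold of 1.5. DLG2 and HOMER2 pass 1.5-fold upon differentiation, and DLG3 and HOMER1 lie at -0.57 and -0.53 between the lines in DF.

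The SHANK genes, the master scaffolds between DLGAP and Homer, changed little. SHANK1 had log2 values of 5.61 and 5.40 in V71 DF against 5.11 and 5.21 in V71 NDF cells, and 5.62 and 5.44 in PLKO DF against 5.28 and 5.30 in PLKO NDF cells. Its DF arrays lay above its NDF arrays in each line, by 0.35 in V71 and 0.24 in PLKO, with limma adjusted p of 0.0570 and 0.201. SHANK2 stayed between 4.27 and 4.62 on all 8 arrays. Its change had 95% intervals of -0.13 to 0.36 in V71 and -0.09 to 0.39 in PLKO, and its difference between the lines in DF had an interval of -0.28 to 0.21. DLGAP2, which links DLG to SHANK proteins, was dim, between the 30.5 and 39.9 percentiles of rows. Its log2 values were 3.85 and 3.88 in V71 DF against 3.69 and 3.30 in PLKO DF cells, and 3.73 and 3.79 in V71 NDF against 3.67 and 3.38 in PLKO NDF cells. The V71 arrays lay above the PLKO arrays, with a difference of 0.37 in DF (limma adjusted p = 0.198) and 0.23 in NDF (limma adjusted p = 0.553). Upon differentiation DLGAP2 changed by 0.11 in V71 and -0.03 in PLKO (limma adjusted p = 0.736 and 0.943). SHANK1 differed between the lines by -0.02 in DF, with an interval of -0.25 to 0.21, and by -0.13 in NDF, with an interval of -0.36 to 0.10.

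Over the 9 scaffold genes, 2 were called upon differentiation in V71, both higher, where 7.53% of all genes were called and 3.98% were called higher. In PLKO 2 were called, both higher, against 7.04% of all genes called and 2.88% called higher. The median log2 change was 0.15 over the 9 genes in V71 and 0.24 in PLKO, and it was 0.00 and 0.01 over all genes. In V71, 7 of the 9 genes had both DF arrays above both NDF arrays, as had 27.7% of all genes, and 1, DLG3, had them below, as had 27.3%. In PLKO 5 of the 9 lay above, against 29.2% of all genes, and 0 lay below, against 25.9%. Between the lines limma called 0 of 9 in DF, where 3.06% of all genes were called, and 0 of 9 in NDF, where 2.15% were. At an unadjusted p under 0.05 there were 4 in DF, where 19.5% of all genes were, and 1 in NDF, where 15% were, and without moderation 0 were called in either. By adjusted p alone 2 of 9 were lower in V71 in DF, DLG3 and HOMER1, against 2.76% of all genes, and 0 were in NDF, against 2.36%. The arrays of the lines did not overlap for 4 of 9 genes in DF and 4 of 9 in NDF, near the 45.7% and 47.5% of all genes. The interaction called 0 of 9, where 1.39% of all genes were called, with 0 at an unadjusted p under 0.05, against 10.2% of all genes, and 0 without moderation. The comparisons share arrays, so their counts are not independent of each other.

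**Figure D3:**
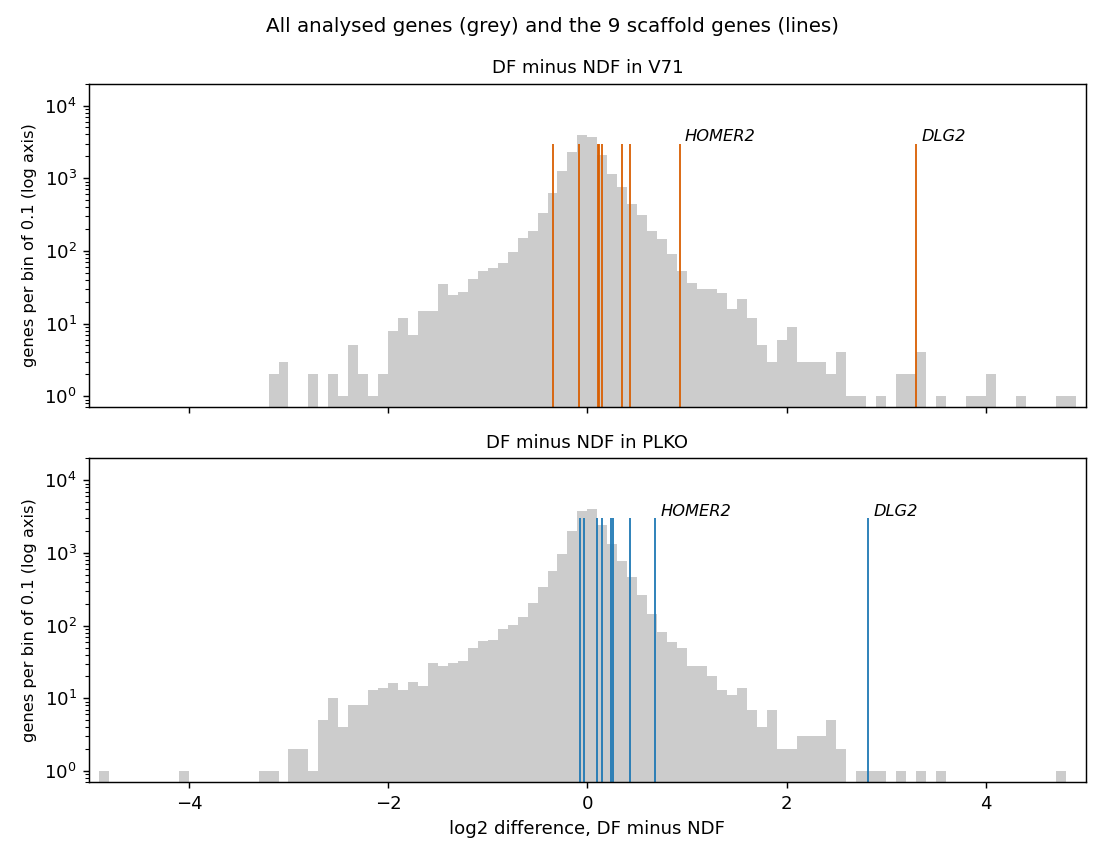
Distribution of the log2 change upon differentiation (x axis, bins of 0.1) over the 18377 genes, with the number of genes on a log axis, in V71 (top) and PLKO (bottom). Coloured lines are the 9 scaffold genes; DLG2, at 3.30 and 2.82, lies in the far upper tail, and HOMER2, at 0.93 and 0.68, on its shoulder.

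The partners of these scaffolds were taken from lists of general knowledge, chosen with earlier results of these data known. Of 23 analysed partner scaffolds, 4 rose upon differentiation in V71, where 3.98% of all genes were called higher, and 3 rose in PLKO, where 2.88% were. None fell. Between the lines 1 was higher and 1 was lower in V71 in DF, where 3.06% of all genes were called, and 2 were lower in NDF, where 2.15% were. The other listed relatives of the families, SHANK3, HOMER3, DLGAP3, DLGAP4 and DLG5, were picked out after their values were seen. None of them was called in any comparison, and their changes upon differentiation lay between -0.13 and 0.26.

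LRRC7, which encodes densin, a leucine-rich scaffold that binds SHANK and CaM kinase II, rose only where V71 cells were differentiated. Its log2 values were 4.20 and 4.34 in V71 DF against 2.65 and 2.69 in V71 NDF cells, and 2.76 and 2.75 in PLKO DF against 2.97 and 2.61 in PLKO NDF cells. The change was 1.60 in V71 (standard error 0.12, limma adjusted p = 2.53e-05) and -0.03 in PLKO (limma adjusted p = 0.935), and the interaction was 1.63 (limma adjusted p = 0.00184). The row was dim outside V71 DF, below the lower quartiles of the arrays, which reached at most 3.06, so background may set the size there. Without moderation the adjusted p of the interaction was 0.182. BEGAIN, a PSD-95 binding protein, had log2 values of 7.10 and 7.21 in V71 DF against 6.23 and 6.47 in V71 NDF cells, and 6.63 and 6.70 in PLKO DF against 6.71 and 6.67 in PLKO NDF cells. Its interaction was 0.83 (limma adjusted p = 0.0282), and the adjusted p lay above 0.05 without 7 of the 8 arrays in turn, at up to 0.147.

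CNKSR2, a scaffold of Ras signaling that binds PSD-95, showed the opposite pattern. Its log2 values were 4.79 and 5.07 in V71 DF against 4.67 and 4.76 in V71 NDF cells, and 6.07 and 6.08 in PLKO DF against 4.77 and 4.64 in PLKO NDF cells. It rose by 1.37 in PLKO (standard error 0.11, limma adjusted p = 2.74e-05) and changed by 0.22 in V71 (limma adjusted p = 0.266), with an interaction of -1.16 (limma adjusted p = 0.00671) that just missed without PLKO NDF replicate 3 (-1.09, adjusted p = 0.0501). TANC1, an ankyrin-repeat scaffold, rose by 0.84 in PLKO (limma adjusted p = 0.000111). In V71 it changed by 0.44, under 1.5-fold (limma adjusted p = 0.006), and the interaction was -0.40 (limma adjusted p = 0.23). The V71 minus PLKO difference of TANC1 was -0.58 in DF, under 1.5-fold (limma adjusted p = 0.00362), and -0.18 in NDF (limma adjusted p = 0.403). TANC2 and APBA1, an adaptor of the CASK and LIN7 complex, were lower in V71 NDF than in PLKO NDF cells, with log2 differences of -0.73 and -0.84 (limma adjusted p = 0.00473 and 0.00257), and TANC2 lost its call without PLKO NDF replicate 2 (-0.63, adjusted p = 0.0636). Without moderation neither passed (adjusted p = 0.125 and 0.115). TANC2 also rose in V71, by 0.71 (limma adjusted p = 0.00148). In PLKO TANC2 changed by 0.26 (limma adjusted p = 0.148), and its interaction was 0.44 (limma adjusted p = 0.315). APBA1 changed by 0.16 in V71 (limma adjusted p = 0.433) and by -0.47, under 1.5-fold, in PLKO (limma adjusted p = 0.0173). The interaction of APBA1 was 0.63 (limma adjusted p = 0.122). SORBS2, an actin-linked adaptor, rose by 0.75 in V71 and 0.59 in PLKO (limma adjusted p = 0.000372 and 0.00174), but on its row with the lowest mean the changes were 0.09 and 0.15, not called, and without PLKO DF replicate 2 or PLKO NDF replicate 2 its change in PLKO was under 1.5-fold (0.55 and 0.57).

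Of 18 analysed signaling enzymes of the postsynaptic density, 2 rose and 1 fell in V71 upon differentiation, where 7.53% of all genes were called, and 2 rose in PLKO, where 7.04% were. KALRN, an exchange factor that enlarges dendritic spines, rose by 0.95 in V71 and by 0.99 in PLKO (standard error 0.09 each, limma adjusted p = 0.00014 and 9.04e-05). Its V71 minus PLKO difference was -0.52 in DF and -0.48 in NDF, both under 1.5-fold (limma adjusted p = 0.0118 and 0.0267). SIPA1L1, a Rap regulator that binds PSD-95, had log2 values of 7.32 and 7.37 in V71 DF against 8.23 and 8.41 in PLKO DF cells, a difference of -0.97 (standard error 0.11, limma adjusted p = 0.00111). It rose by 1.04 in PLKO (limma adjusted p = 0.000204) and changed by 0.40 in V71, under 1.5-fold (limma adjusted p = 0.0422), and the interaction was -0.64 (limma adjusted p = 0.139). SIPA1L2 was also lower in V71 DF than in PLKO DF cells, by a log2 difference of -0.63 (limma adjusted p = 0.00469). It fell upon differentiation in V71, with a log2 change of -0.85 (limma adjusted p = 0.000295). In PLKO it changed by -0.37, under 1.5-fold (limma adjusted p = 0.0309), and the interaction was -0.48 (limma adjusted p = 0.198). Without moderation the differences of SIPA1L1 and SIPA1L2 between the lines in DF did not pass (adjusted p = 0.0768 and 0.0802). CAMK2G, a CaM kinase II subunit, rose by 0.65 in V71 (limma adjusted p = 0.00108), and by 0.57, under 1.5-fold, without V71 NDF replicate 2. In PLKO it changed by 0.49, under 1.5-fold (limma adjusted p = 0.00531), and the interaction was 0.15 (limma adjusted p = 0.808). Of the 12 analysed actin regulators of spines limma called 0 upon differentiation, with 4 at an unadjusted p under 0.05 in V71, against 29.1% of all genes, and 5 in PLKO, against 28%. Their changes ran between -0.54 and 0.41 in V71 and between -0.42 and 0.38 in PLKO. GPHN (gephyrin) and NLGN2, the analysed genes of the inhibitory synapse, changed by 0.05 and 0.14 in V71 and by 0.08 and -0.09 in PLKO, with no unadjusted p under 0.05.

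Among 16 analysed receptor and ion channel genes whose products the scaffolds bind, the genes called were the AMPA receptor subunits GRIA1 to GRIA4. Upon differentiation 1 fell in V71, where 7.53% of all genes were called, and 1 rose and 1 fell in PLKO, where 7.04% were. GRIA2, which limits calcium entry through AMPA receptors, had log2 values of 6.30 and 6.43 in V71 DF against 8.14 on both V71 NDF arrays, and 6.97 and 7.10 in PLKO DF against 7.88 and 7.77 in PLKO NDF cells. It fell in both lines, with log2 changes of -1.78 in V71 (standard error 0.09, limma adjusted p = 2.66e-06) and -0.79 in PLKO (limma adjusted p = 0.000328). The fall was larger in V71 by the interaction, -0.99 (limma adjusted p = 0.00631), or -0.94 without PLKO NDF replicate 3 (adjusted p = 0.0508). GRIA1 rose by 0.68 in PLKO (limma adjusted p = 0.00363), a change that did not pass without moderation (adjusted p = 0.0738). Without PLKO DF replicate 1 the change of GRIA1 in PLKO was 0.54, under 1.5-fold. In V71 it changed by 0.57, under 1.5-fold (limma adjusted p = 0.00916), and the interaction was -0.11 (limma adjusted p = 0.919). Between the lines 1 of the 16 was called higher and 2 lower in V71 in DF, where 3.06% of all genes were called. In NDF 1 was called higher and 1 lower, where 2.15% were. GRIA2 differed by -0.67 in DF (limma adjusted p = 0.00279), which did not pass without moderation (adjusted p = 0.0618). In NDF GRIA2 differed by 0.32 (limma adjusted p = 0.139). GRIA3 was lower in V71 cells than in PLKO cells in both media, at -0.77 in DF and -0.99 in NDF. GRIA4 was higher in both, at 0.62 and 0.64. All 4 differences were called, but that of GRIA4 in DF was under 1.5-fold without V71 DF replicate 2 (0.55), and that in NDF missed without V71 NDF replicate 2 or either PLKO NDF array (adjusted p between 0.0622 and 0.0845). None of the 4 passed without moderation (adjusted p between 0.0918 and 0.124). Uncalled genes of this list that passed on adjusted p alone, picked out after their values were seen, were GRIN1, ITPR2 and CACNG2. GRIN1, the obligatory NMDA receptor subunit, stood at -0.53 between V71 DF and PLKO DF cells and at 0.42 upon differentiation in PLKO, both under 1.5-fold (limma adjusted p = 0.0343 and 0.0466). ITPR2, an inositol trisphosphate receptor, stood at 0.57 between V71 NDF and PLKO NDF cells (limma adjusted p = 0.0184) and at 0.41 upon differentiation in PLKO (limma adjusted p = 0.0292). CACNG2 (stargazin), an auxiliary AMPA receptor subunit, changed by 0.46 in V71 and by 0.58 in PLKO (limma adjusted p = 0.0477 and 0.0164). GRM5, a metabotropic receptor that Homer binds, differed by at most 0.14 in any of the 4 pairwise comparisons.

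**Figure D4:**
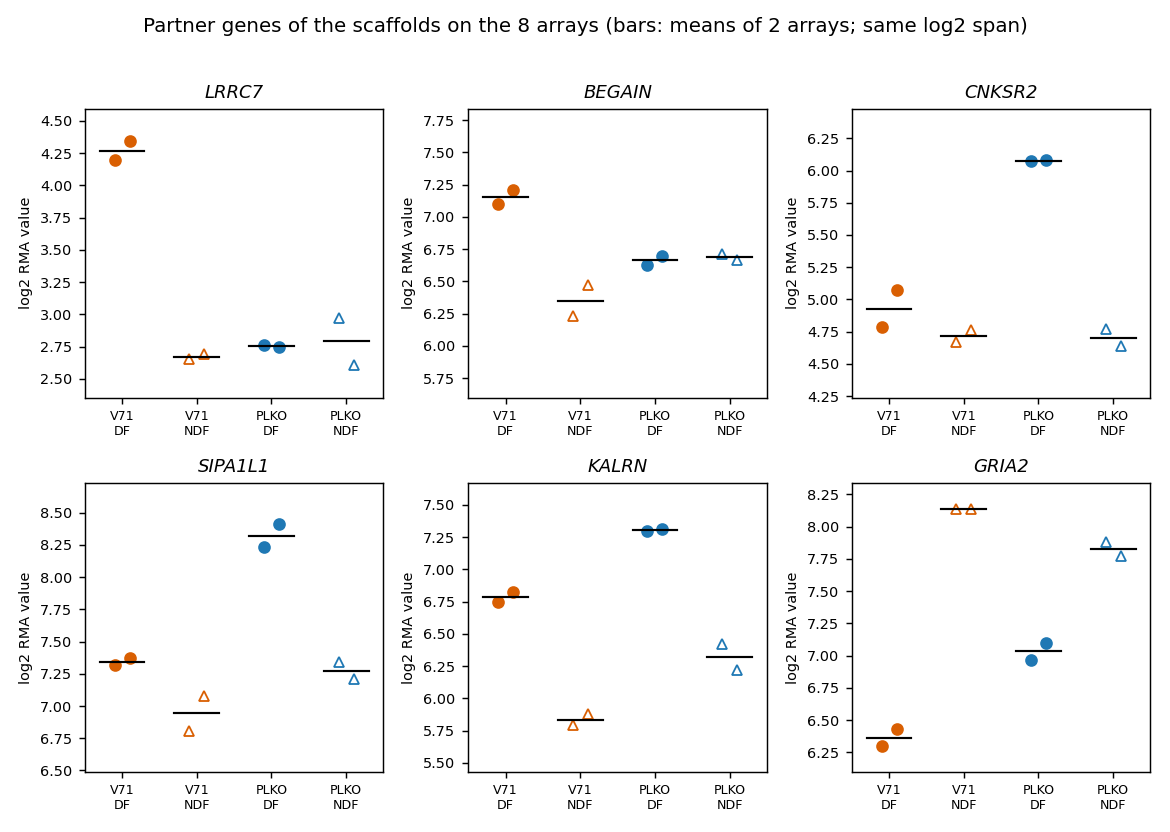
Deposited log2 RMA value of 6 partner genes on the 8 arrays, with the signs and colours of the plot of scaffold genes (filled circles DF, open triangles NDF, orange V71, blue PLKO, bars means of 2 arrays). LRRC7 is raised on the V71 DF arrays alone, at 4.20 and 4.34, CNKSR2 on the PLKO DF arrays alone, at 6.07 and 6.08, and GRIA2 falls in both lines, with log2 changes of -1.78 in V71 and -0.79 in PLKO.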

How the data were processed

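RNA of 8 samples was hybridised to Affymetrix Human Gene 1.0 ST arrays. The authors ran RMA in Partek 6.5, and the deposited log2 values were taken as they stand. Of 28869 rows, 19310 carry exactly 1 symbol, 1752 several and 7807 none in the platform annotation. A gene with several rows (685 genes) was read from its brightest row, and no scaffold gene had several. Groups followed the title codes.

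All rows were fitted in limma 3.58.1 under R 4.3.3, with 1 mean for each of 4 groups and eBayes moderation (4 residual and 5.43 prior degrees of freedom). Alternatives included the methods' analysis of variance, other fold thresholds, renormalization, array weights, a replicate block and leaving out each array. The median residual SD was 0.0996 on the log2 scale. P values measure the spread between replicate cultures of the same lines. Whether replicate numbers pair the arrays is not stated. No detection calls were used.

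The scaffold genes and gene lists were chosen with earlier results of these data known. All 9 analysed scaffold genes were named, and from each partner list, per comparison, the called genes with the largest change, at most 3. SHANK3, HOMER3, DLGAP3, DLGAP4, DLG5, GRIN1, ITPR2, CACNG2, GRM5, GPHN and NLGN2 fall outside that rule and were chosen after their values were seen. Of 4 analysed Schwann cell markers limma called 0. At an unadjusted p under 0.05 there was 1 between the lines in DF, against 19.5% of all genes. Upon differentiation in V71 there was 1, against 29.1% of all genes. Between the lines, of 12 noradrenergic markers, 1 was called higher and 1 lower in V71 in DF, where 3.06% of all genes were called. In NDF 2 were called higher and 1 lower in V71, where 2.15% of all genes were called.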

Additional observations from a re-analysis of the deposited data

Results flagged for a closer look

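In 4 partner genes the change upon differentiation differed between the lines by the interaction test in limma, which called 1.39% of all genes. LRRC7, BEGAIN and CNKSR2 came from 23 analysed partner scaffolds, and GRIA2 from 16 receptor and ion channel genes. The lists of 18 signaling enzymes, 12 actin regulators and 2 inhibitory synapse genes had 0. Of the 9 scaffold genes 0 were called, which is near the share of all genes. The change in V71 minus that in PLKO was 1.63 on the log2 scale for LRRC7, 0.83 for BEGAIN, -1.16 for CNKSR2 and -0.99 for GRIA2. None of the 4 passed without moderation of the variance, with adjusted p of 0.182 for LRRC7, 0.280 for BEGAIN, 0.223 for CNKSR2 and 0.150 for GRIA2. Without PLKO NDF replicate 3 the adjusted p was 0.0501 for CNKSR2 and 0.0508 for GRIA2. BEGAIN lost its call without 7 of the 8 arrays in turn and with the replicate number as a block. Groups of 2 arrays are too small for a search for outlying samples.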

How the results depend on the processing

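Both calls of DLG2 passed under all 20 alternatives run, with log2 changes between 3.19 and 3.56 in V71 and between 2.61 and 3.07 in PLKO. The count of scaffold genes called upon differentiation fell to 1 in V71 and to 1 in PLKO without moderation and again with a fold of at least 2, where HOMER2 dropped out. Without a fold threshold 2 scaffold genes, DLG3 and HOMER1, counted as lower in V71 in DF. Leaving out each array in turn gave 2 to 3 called genes in V71, 1 to 2 in PLKO, 0 to 1 between the lines in DF, and 0 to 0 between the lines in NDF and for the interaction. With the replicate block the count in PLKO was 1, as HOMER2 stood at 0.58 (adjusted p = 0.0730), and the counts in the other 4 comparisons did not change. Same-numbered arrays deviated together with a correlation of 0.19 in DF and -0.18 in NDF, so the numbers were not taken as pairs. For V71 minus PLKO in NDF, on the NDF arrays alone, a block with crossed numbers, chosen after seeing the data, called 0 scaffold genes, and so did a block with the numbers as given. Of 918 alternative values of the scaffold genes 906 kept their side of the threshold and 0 reversed. Most of the 906 were uncalled differences that stayed uncalled, and 49 values of uncalled differences changed sign. A call was gained in 6 values. It was lost in 6, all of HOMER2, in 2 of 20 alternatives in V71 and 4 of 20 in PLKO. For these genes the row with the lowest mean was the main row again, and dropping the fold threshold could not end a call. Of 585 alternative values of the partner genes 58 lost their call and 0 reversed. The number of arrays and the dim rows of DLG2 in NDF and of DLGAP2 limit what can be told.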
